A study of Rattus norvegicus with 14 samples.

Results

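The genes described here are those of the cytoskeleton: actins and the actin-binding actinins, tropomyosins, the Arp2/3 complex, myosin chains, tubulins, keratins, vimentin and desmin. They were taken by gene symbol from an array study of rat liver, and 92 of the 8740 probe sets other than controls met the rule. They stand for 56 of the 4736 genes that have a probe set of their own. A symbol had to begin with Acta, Actb, Actc, Actg, Actn, Tuba, Tubb, Tubg, Tpm and a digit, Myh, Myl, Krt, Cfl or Arpc, or be Vim or Des. Probe sets that the platform annotation gives several symbols were left out. These include 21 with a cytoskeletal symbol, among them all those for cofilin (Cfl1) and for non-muscle myosin heavy chain 9 (Myh9), so neither gene is described. Symbols alone also brought in Krtcap2, a subunit of the oligosaccharyltransferase complex, Mylk2, the kinase of skeletal muscle myosin light chains, and Tubgcp4 and Tubgcp6, which belong to the gamma-tubulin ring complex.

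RNA came from the left lateral lobe of the liver of rats fed 1 of 3 diets: magnesium-deficient (4 arrays, numbered 11 to 14), magnesium-supplemented (5 arrays, 1 to 5) and standard (5 arrays, 6 to 10). The sources used here give no genotype, strain, age, time on the diet or magnesium content, and do not tell which arrays, if any, shared an animal. The p-values therefore cover the spread from array to array, part of which may be technical. In a whole-tissue sample, fewer cells of a type and less RNA per cell cannot be told apart.

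The cytoskeleton of a liver cell is built of actin filaments, microtubules and intermediate filaments. Actin filaments, with tropomyosin along them and myosin pulling on them, line the cell cortex and the bile canaliculi. Microtubules of alpha- and beta-tubulin carry secretory vesicles and are started at the gamma-tubulin ring complex. Hepatocytes hold a simple keratin network built from keratin 8 and keratin 18, which polymerise only as partners. Bile duct cells add keratins 7 and 19, stellate cells of the rat hold desmin and vimentin, and smooth muscle of vessel walls holds Acta2 and Myh11.

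Which cytoskeletal genes gave a signal in liver was the first question. Signals are log2 of quantile-normalised probe set intensities, with a floor at 1.97 (3.93 units). The floor is the pooled 20th percentile, to which lower values were raised, and is not a detection limit. A probe set was tested if its mean over the 14 arrays was above a filter level of 3.83 (14.3 units). Of the 92 probe sets 45 were tested (48.9%), which stand for 34 genes, against 58.7% of all 8740. The other 47 had means of at most 3.77, 19 of them were above the filter level on at least 1 array, and 22 genes had no tested probe set. Array brightness does not rank the transcripts of different genes, since each probe set binds with its own strength.

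Many of the tested probe sets were those of non-muscle and simple epithelial forms. Those of myosin light chains also included muscle forms (Myl1, Myl2, Myl7, Myl9 and Myl11), and Krt14 is a keratin of skin epithelium. All 4 probe sets of the Arp2/3 complex, which starts branched actin filaments, were tested, with means between 7.39 and 7.99. So were 8 of 11 for tubulins and the gamma-tubulin complex (4.14 to 10.27, the highest being Tuba1b) and 14 of 20 for myosin light chains and their kinase (3.97 to 9.33, the highest being Myl12b, a regulatory light chain of non-muscle myosin). Among actins and actinins 4 of 10 were tested, namely Actb, Actg1, Actn4 and 1 probe set of Acta2. Among keratins 5 of 14 were tested: 2 for Krt18 and 1 each for Krt8, Krt14 and Krtcap2. The 7 tested of 13 tropomyosin probe sets belonged to Tpm1, Tpm3 and Tpm4. Vim was tested at a mean of 5.84, and Des, at 2.17, was not.

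Genes of striated muscle were mixed. Of the 18 myosin heavy chain probe sets 16 were below the filter level. The other 2 were 1 for Myh3 and that of Myh1, a fast skeletal myosin heavy chain, at a mean of 5.60 (4.89 to 6.74) and above the filter level on all 14 arrays. Mylk2, at 7.44, and Myl2 M11851 were also above it on all 14, and Myl11 X00975, a fast skeletal light chain, had a mean of 3.99. On all 14 arrays 7 cytoskeletal probe sets were at the floor, that of Acta1, the skeletal muscle actin, among them. The marker lists do not hold Myh1, Mylk2 or Myl2, and Myl11, listed by its older symbol Mylpf, was not matched. Of the 9 skeletal muscle markers matched on the array only Myl1 was above the filter level, and of 5 cardiac muscle markers only Myl7. All 6 hepatocyte markers were above it, with summed signals of 34365 to 36360 units on deficient, 32463 to 36826 on supplemented and 34901 to 38354 on standard arrays. The defining markers of liver parenchyma were thus present.

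**Figure D1:**
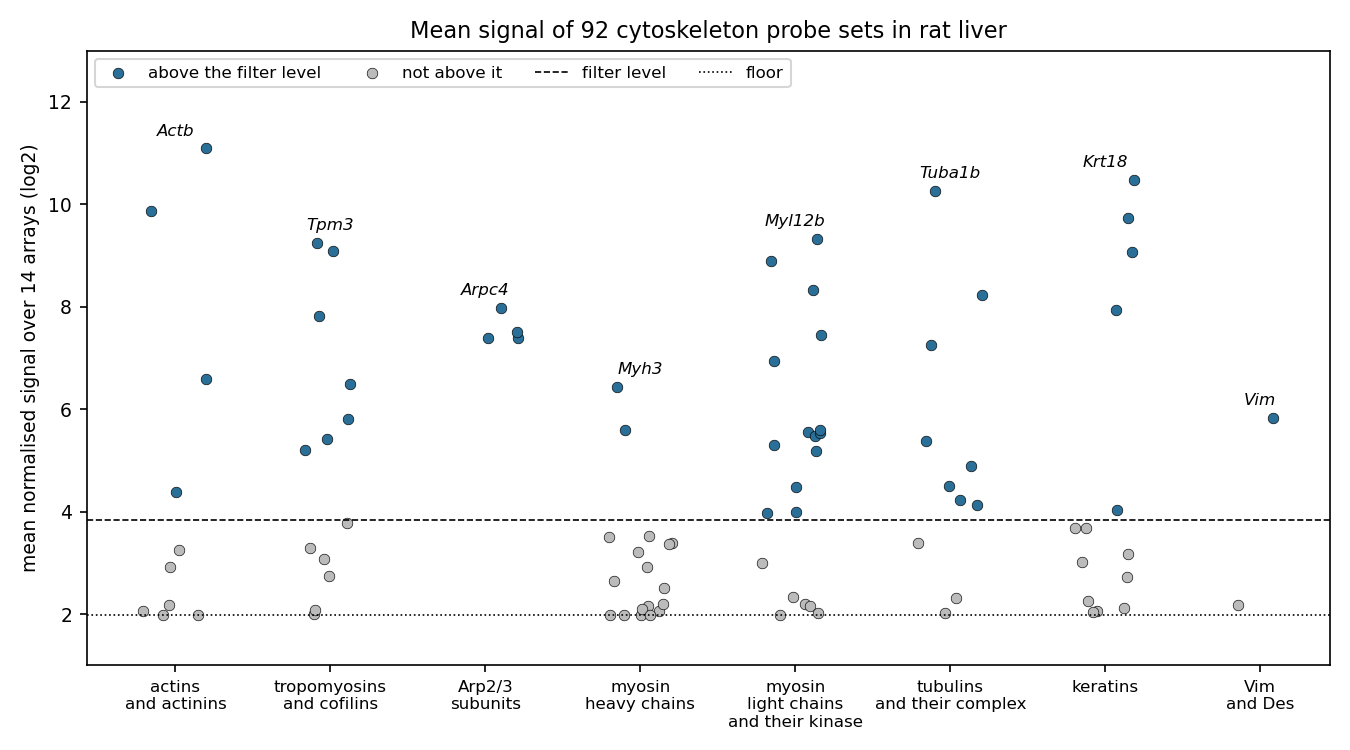
Mean normalised signal (log2, 14 arrays) of the 92 cytoskeleton probe sets by gene family; blue points were above the filter level of 3.83 (dashed) and grey points were not, with the floor of 1.97 dotted. The named points are the probe sets with the highest mean of each family, from Actb at 11.09 to Vim at 5.84.

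In 8 genes some probe sets were tested and others had means not above the filter level: Acta2, Myh3, Myl11, Myl2, Tpm1, Tpm3, Tubb2b and Tubgcp4. Myh3, the embryonic muscle myosin heavy chain, had 1 probe set at a mean of 6.43 (X04267, range 4.93 to 7.18), while the means of its other 4 lay between 2.10 and 3.51. For Myl2, a cardiac light chain, M11851 had a mean of 5.48 and the other 2 had means of 1.97 and 3.00. A tested probe set of these genes is therefore given by its ID and not as the level of its gene.

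Between diets, no cytoskeletal probe set passed the test. Limma's moderated test with Benjamini-Hochberg adjustment over all 5133 probe sets tested called 0 of 45 for deficient against standard (background 0% of all probe sets), 0 for supplemented against standard (background 0%) and 0 for deficient against supplemented (background 0.0195%). The F-test for any diet called 0 as well (background 0.0195%). An unadjusted p under 0.05 was reached by 0 of 45 for deficient against standard (background 3.04%), 3 (6.67%) for supplemented against standard (background 8.88%), 5 (11.1%) for deficient against supplemented (background 13%) and 4 (8.89%) in the F-test (background 9%). Each share is below or near its background. By direction, the 3 were all higher on the supplemented diet (background 4.15% higher, 4.73% lower), and of the 5, 3 were higher and 2 lower on the deficient diet (background 6.86% and 6.18%). Arrays of the diets did not overlap in 1 of 45 for deficient against standard (background 1.44%), 0 for supplemented against standard (background 1.81%) and 1 for deficient against supplemented (background 4.95%).

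The differences were divided almost evenly in direction. On the deficient diet 21 of 45 were above the standard diet and 24 below (50.1% of all probe sets were above), with a median log2 difference of -0.017 (0.00059 over all probe sets tested). For supplemented minus standard 22 were positive and 23 negative (47.7% of all positive), with a median of -0.012 (-0.016 over all). In the deficient minus supplemented comparison 23 were positive and 22 negative (52.5% of all positive), with a median of 0.0084 (0.023 over all). The split depended on scaling. With arrays centred on their median in place of quantile normalisation, 28, 17 and 27 of 45 were positive in these comparisons in the same order, and the median of all probe sets moved to 0.058, -0.11 and 0.17. With values as deposited 23, 25 and 18 were positive. The comparisons share arrays, so their values are not independent of each other.

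**Figure D2:**
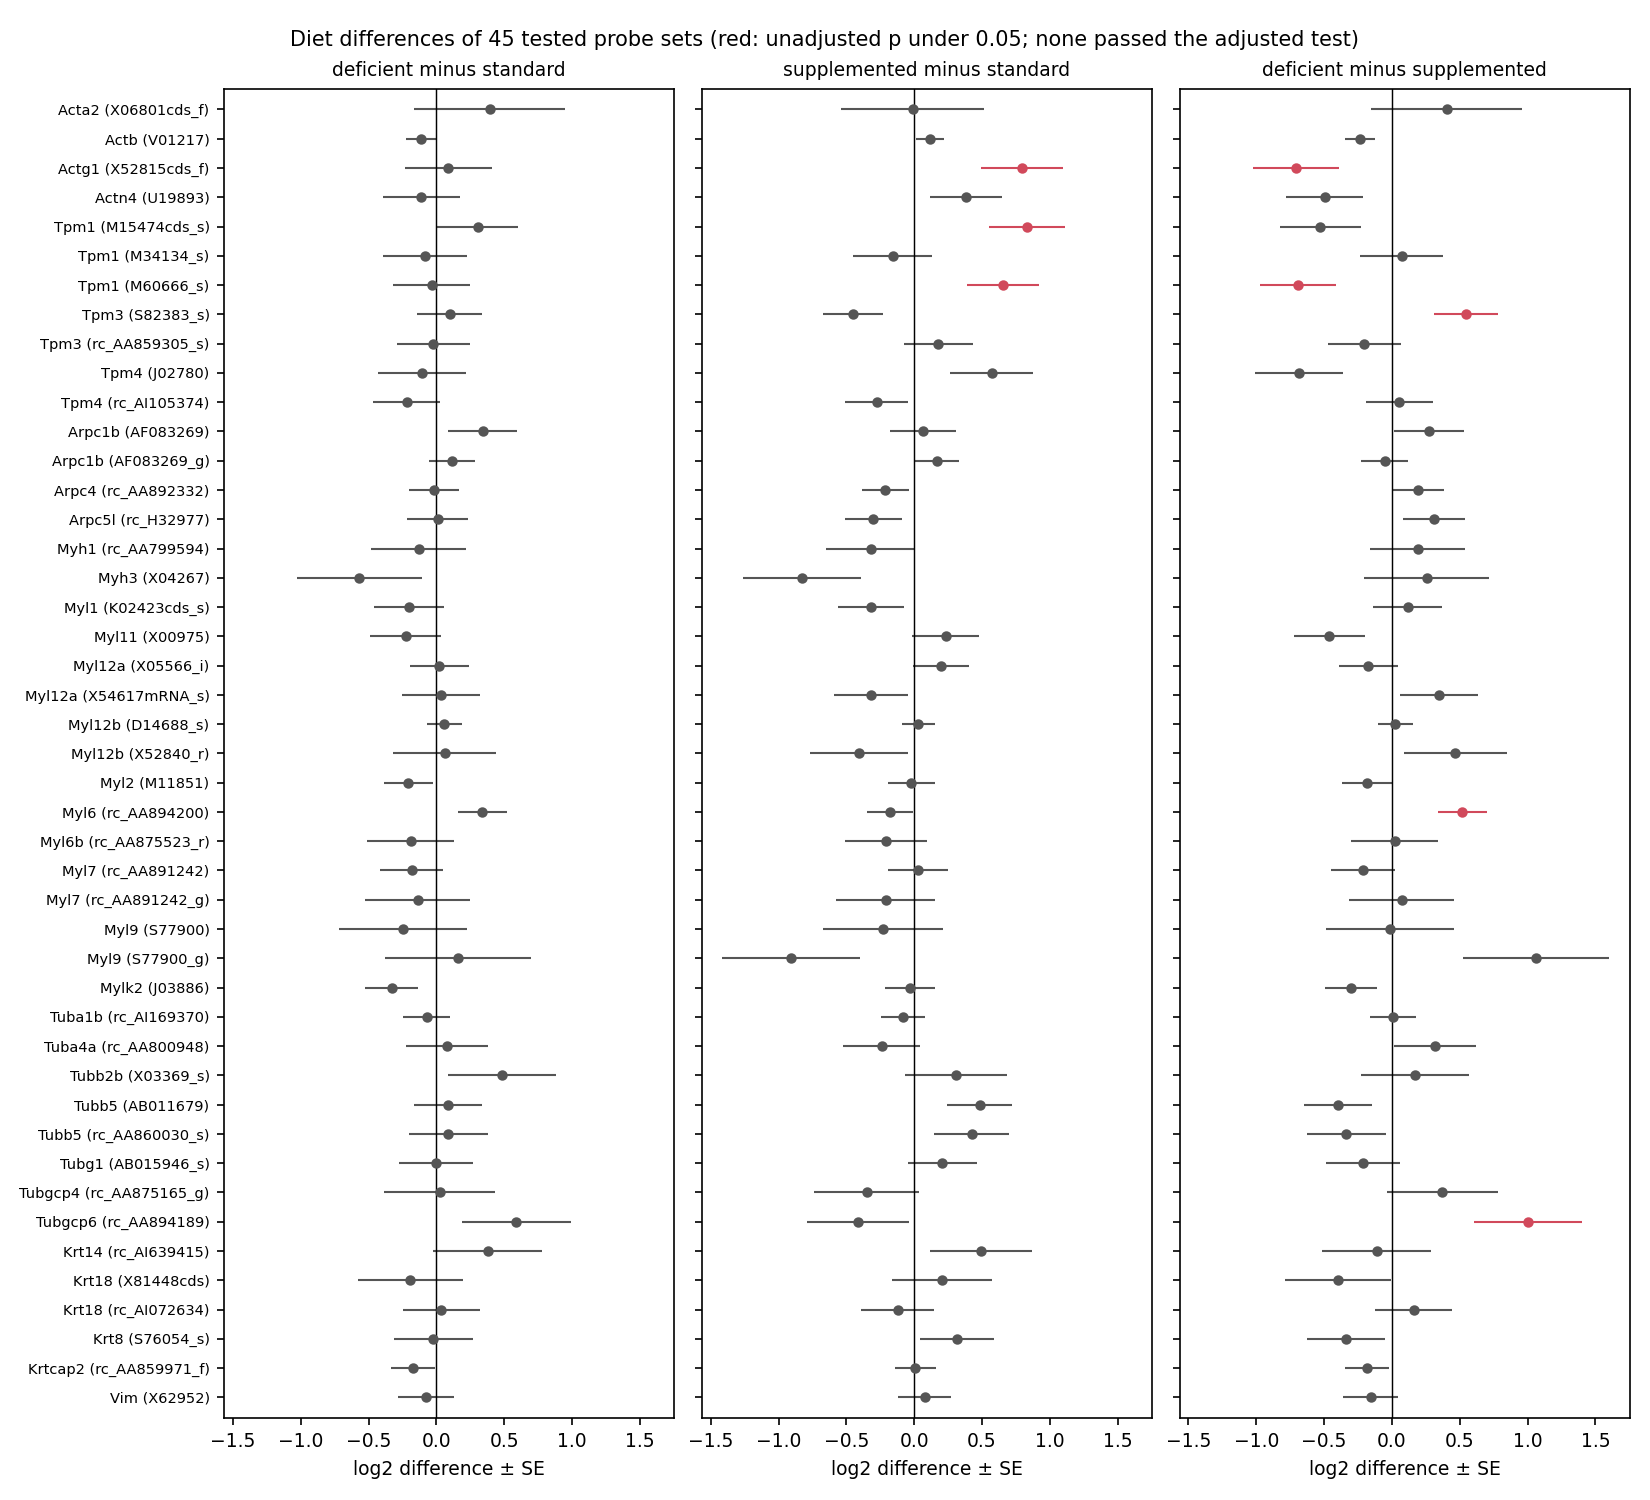
Log2 difference ± SE of each of the 45 tested probe sets in 3 comparisons: deficient minus standard, supplemented minus standard and deficient minus supplemented. Red marks an unadjusted p under 0.05 (0, 3 and 5 probe sets in that order), and none passed the adjusted test.

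Among the actins, Actb, the cytoplasmic beta-actin, was the steadiest. Its log2 signal averaged 10.97 ± 0.09 (SD, n = 4) on the deficient diet, 11.20 ± 0.18 (SD, n = 5) on the supplemented diet and 11.08 ± 0.11 (SD, n = 5) on the standard diet. All 14 arrays lay within 0.58 of each other, and the deficient minus supplemented difference was -0.23 ± 0.11 (SE; limma adjusted p = 0.388). Actg1 encodes the other cytoplasmic actin, gamma-actin. Its only single-symbol probe set carries the suffix for probes shared within a sequence family, and actin genes are nearly identical in their coding parts, so other actins may add to the signal.

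Actg1 X52815cds_f was at 9.23, 9.48, 9.34 and 10.57 on deficient arrays 11 to 14. On supplemented arrays 1 to 5 it was at 10.63, 9.41, 10.45, 10.43 and 10.87. Standard arrays 6 to 10 gave 9.97, 9.45, 9.04, 9.98 and 9.38. Supplemented arrays 1, 3, 4 and 5 and deficient array 14 thus stood above every standard array, while supplemented array 2 lay among the standard ones, so the groups overlapped. The supplemented minus standard difference was 0.79 ± 0.30 (SE; unadjusted p = 0.0188, limma adjusted p = 0.492), or 1.73-fold. The deficient minus supplemented difference was -0.71 ± 0.32 (adjusted p = 0.373), and without deficient array 14 it was -1.01.

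The upstream region of Actg1 is shown because it differs from most cytoskeletal promoters in one known element, the CArG box, which binds serum response factor, a regulator of actin genes. The box was searched by its name's 10-letter consensus, which reads as itself on both strands, in the 250 bases before each start. RefSeq promoters (GRCr8) matched 45 of the 56 genes by symbol, and 4 genes held a box (8.89%), against 1.50% of all 33469 promoters. These shares are of unlike units. A gene was counted if any of its promoters held a box, while the background counts single promoters. Genes without a match were not searched. Each of the 4 is given 5′ to 3′ with its box in capitals.
Actg1 (chr10:106121007-106121066, minus strand): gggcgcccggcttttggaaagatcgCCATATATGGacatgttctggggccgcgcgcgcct
Acta1 (chr19:68784254-68784313, minus strand): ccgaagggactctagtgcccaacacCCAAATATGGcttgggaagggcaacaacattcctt
Myh4 (chr10:52422005-52422064, plus strand): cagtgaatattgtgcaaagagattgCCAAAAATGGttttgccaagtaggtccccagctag
Myl3 (chr8:119616972-119617031, plus strand): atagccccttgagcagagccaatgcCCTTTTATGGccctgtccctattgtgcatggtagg
The first base of the box lies 90 bases before the start in Actg1, 94 in Acta1, 118 in Myh4 and 97 in Myl3. Of these 4 genes only Actg1 was above the filter level in liver. The other 3 are muscle genes: Acta1 was at the floor, Myh4, a fast skeletal myosin, had a mean of 3.21 and Myl3, a cardiac light chain, a mean of 2.20. A match is a description of the letters and shows no binding.

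Measures of RNA quality are given beside these values. Affymetrix control probe sets lie at the 5′ end, the middle and the 3′ end of the beta-actin and Gapdh transcripts, and a high 3′/5′ ratio is a sign of shortened or incompletely copied RNA. On the log2 scale the ratio for Gapdh averaged 1.84 ± 0.65 (SD, n = 4) in deficient, 0.71 ± 0.49 (SD, n = 5) in supplemented and 1.64 ± 0.61 (SD, n = 5) in standard arrays. Its supplemented minus standard difference of -0.93 had an exact permutation p of 0.0159, adjusted 0.119 over 15 tests of array measures, and its deficient minus supplemented difference of 1.13 had the same p-values. With the Gapdh ratio as a covariate the supplemented minus standard difference of Actg1 was 0.29, and with the beta-actin ratio it was 0.54. The deficient minus supplemented difference was -0.094 with the Gapdh ratio and -0.30 with the beta-actin ratio. Whether RNA quality accounts for any of the difference was not tested.

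The beta-actin controls themselves ranged more widely than Actb V01217. The middle control ran from 10.21 to 11.73 on deficient, 10.12 to 11.46 on supplemented and 10.31 to 11.36 on standard arrays (log2 of deposited signals), with deficient array 14, supplemented arrays 1 and 4 and standard array 9 highest. Over the 14 arrays V01217 and the middle control had no clear relation (Pearson's r = -0.065, permutation p = 0.830; Spearman's rho = 0.046, permutation p = 0.881). For the 3′ control r was -0.58 (permutation p = 0.0280, adjusted 0.155 over 36 p-values of 18 relations) and rho -0.42 (permutation p = 0.132), and without supplemented array 5 and deficient array 13 r was -0.12. Actg1 and the middle control had r = 0.51 (permutation p = 0.0656, adjusted 0.281) and rho = 0.48 (permutation p = 0.0871). Without supplemented arrays 5 and 1, r was 0.81. The relations with the controls were chosen after their values were seen.

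**Figure D3:**
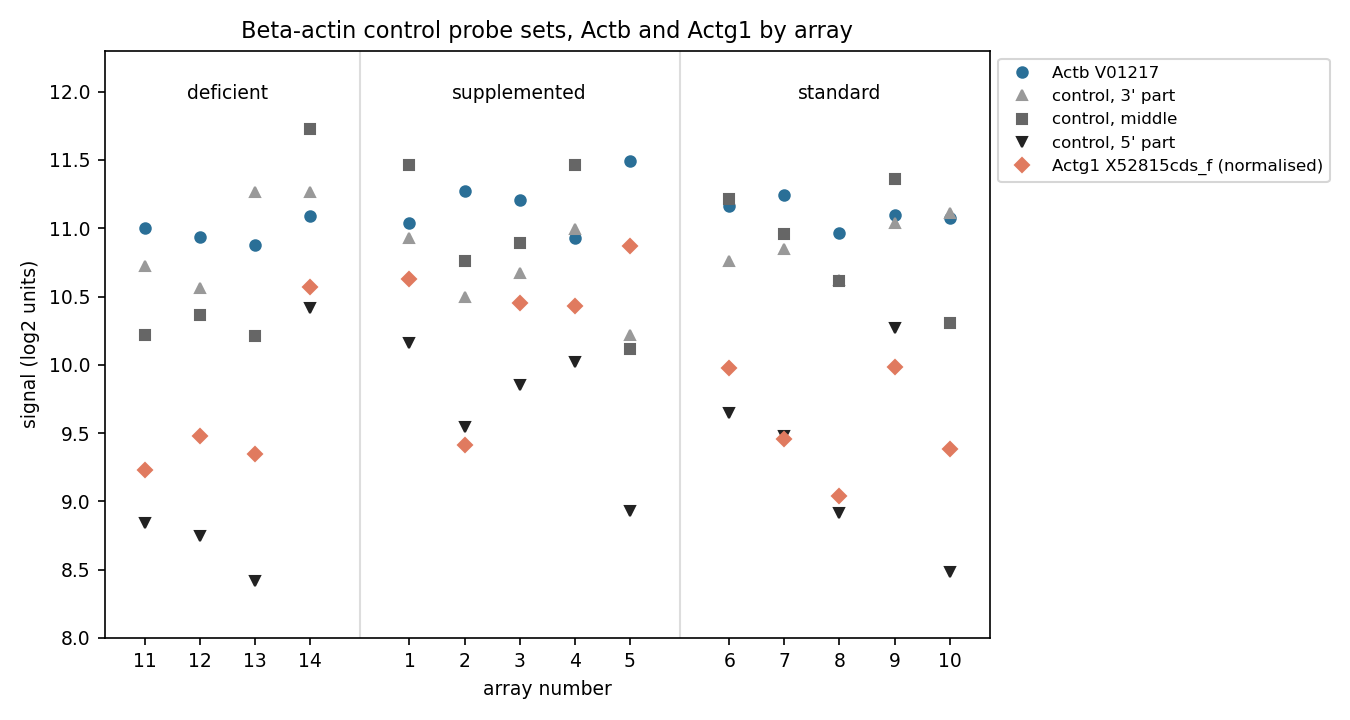
Log2 signal of Actb V01217, the 3 beta-actin control probe sets (deposited values) and Actg1 (normalised) on each array, by diet. V01217 stays between 10.87 and 11.49, while the 5′ control spans 8.42 to 10.41, with deficient array 14 above the other deficient arrays.

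Actn4, which cross-links actin filaments, averaged 6.37 ± 0.61 (SD, n = 4) on the deficient, 6.87 ± 0.31 (SD, n = 5) on the supplemented and 6.48 ± 0.40 (SD, n = 5) on the standard diet, and reached no unadjusted p under 0.05. The tested probe set of Acta2, the actin of smooth muscle and activated stellate cells, ran from 2.57 to 5.21 over all arrays and its diet differences were smaller than their SE. It too is a family probe set. Another Acta2 probe set, rc_AA900769_s, had a mean of 2.92 and was not tested. It ran from the floor to 4.33 on deficient, to 6.41 on supplemented and to 2.72 on standard arrays. Summed signals of the 12 stellate cell, smooth muscle and fibroblast markers on the array were 481 to 560 units on deficient, 444 to 604 on supplemented and 470 to 615 on standard arrays, with Des, Actg2, Cnn1, Myh11 and Thy1 below the filter level.

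Tropomyosins, the rod proteins that run along actin filaments, gave the lowest p of the 45 in the supplemented minus standard comparison. Tpm1 had 3 tested probe sets. M60666_s was at 7.07, 7.50, 7.24 and 8.44 on deficient arrays 11 to 14, at 7.99, 7.73, 8.36, 8.68 and 8.51 on supplemented arrays 1 to 5, and at 7.54, 7.56, 7.13, 7.74 and 8.03 on standard arrays 6 to 10. M15474cds_s was at 5.30, 5.78, 5.22 and 6.62 on deficient arrays, at 6.63, 5.73, 5.87, 6.50 and 6.55 on supplemented arrays, and at 4.98, 5.51, 5.18, 5.85 and 5.61 on standard arrays. In both probe sets deficient array 14 and most supplemented arrays were high, and the groups overlapped.

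The supplemented minus standard difference was 0.83 ± 0.28 (SE; unadjusted p = 0.00992, limma adjusted p = 0.492) for M15474cds_s and 0.66 ± 0.27 (unadjusted p = 0.0262, adjusted p = 0.510) for M60666_s. For deficient minus supplemented M60666_s differed by -0.69 ± 0.28 (unadjusted p = 0.0272, adjusted p = 0.335). The third, M34134_s, had the opposite sign for supplemented minus standard, at -0.16 ± 0.29. Tpm1 is spliced into many forms, and which exons each probe set covers is not given in the sources used here. Arrays centred on their median put the deficient minus supplemented difference of M60666_s at -0.42, and leaving out 1 array gave values from -0.98 (without deficient array 14) to -0.53. With the Gapdh ratio as a covariate that difference was -0.46 and with the beta-actin ratio -0.53. The supplemented minus standard difference of M15474cds_s was 0.47 with the Gapdh and 0.66 with the beta-actin ratio, and that of M60666_s was 0.47 and 0.55 in the same order.

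Tpm3 S82383_s was at 9.51, 9.55, 9.56 and 9.27 on deficient arrays, at 9.22, 9.04, 8.34, 9.64 and 8.38 on supplemented arrays, and at 9.28, 9.08, 9.39, 9.45 and 9.67 on standard arrays. Supplemented arrays 3 and 5 were the low ones and array 4 was the highest of its diet, so the groups overlapped. The deficient minus supplemented difference was 0.55 ± 0.24 (SE; unadjusted p = 0.0361, limma adjusted p = 0.369), and as covariates the Gapdh ratio gave 0.14 and the beta-actin ratio 0.44. The other tested Tpm3 probe set, rc_AA859305_s, differed by -0.20 ± 0.27 in the same comparison, Tpm4 J02780 by -0.68 ± 0.33 and Tpm4 rc_AI105374 by 0.055 ± 0.25.

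**Figure D4:**
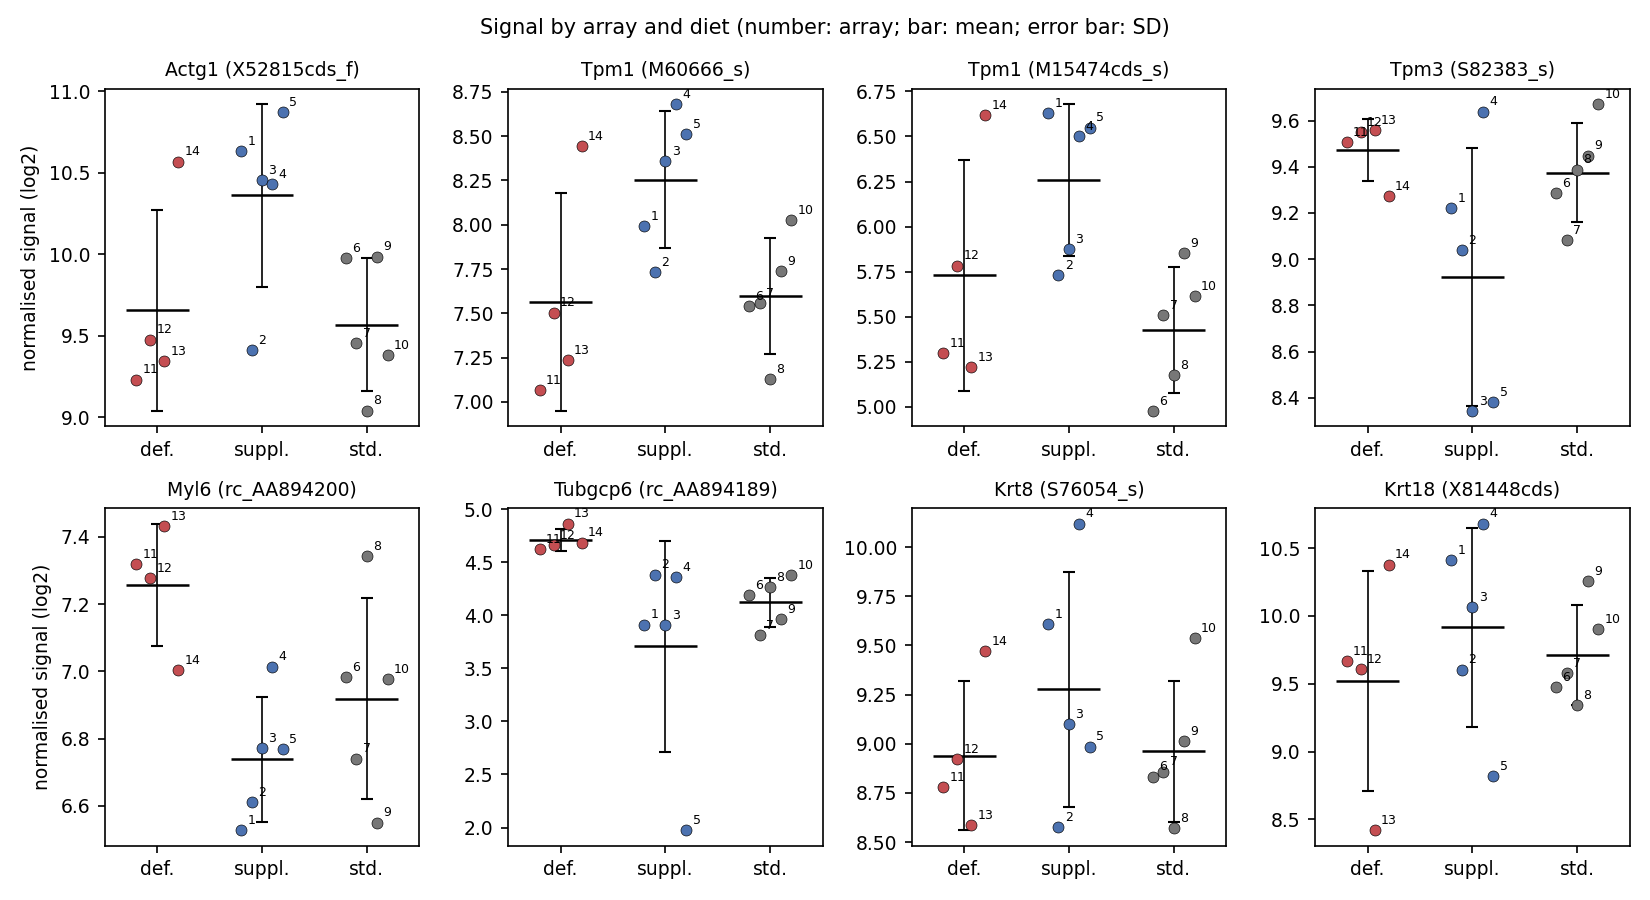
Normalised log2 signal by array (numbered points) for 8 probe sets, with the mean (bar) and SD (error bar) of the deficient, supplemented and standard diets. The groups overlap in each except for Tubgcp6, where all 4 deficient arrays (4.62 to 4.86) lie above all standard (3.81 to 4.38) and all supplemented arrays (1.97 to 4.38).

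Of the myosin chains, only Myl6 (rc_AA894200) reached an unadjusted p under 0.05. It encodes the essential light chain of non-muscle and smooth muscle myosin. Its signal was 7.32, 7.28, 7.43 and 7.00 on deficient arrays, 6.53, 6.61, 6.77, 7.01 and 6.77 on supplemented arrays, and 6.98, 6.74, 7.34, 6.55 and 6.98 on standard arrays. Apart from deficient array 14 and supplemented array 4, which met at 7.00 and 7.01, each deficient array was above each supplemented one. The deficient minus supplemented difference was 0.52 ± 0.18 (SE; unadjusted p = 0.0118, limma adjusted p = 0.302), or 1.43-fold. As a covariate the Gapdh ratio gave 0.31 and the beta-actin ratio 0.33.

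The regulatory light chain Myl12b varied little: probe set D14688_s averaged 9.36 ± 0.13 (SD, n = 4) on deficient, 9.33 ± 0.15 (SD, n = 5) on supplemented and 9.30 ± 0.11 (SD, n = 5) on standard arrays, and its 14 arrays spanned 0.41. Myl9, the light chain of smooth muscle, had its widest span in S77900_g: 2.46 on supplemented array 5 and 5.26 to 6.07 on the other supplemented arrays. The Myh3 probe set X04267 averaged 6.32 ± 0.91 (SD, n = 4) on deficient, 6.06 ± 0.96 (SD, n = 5) on supplemented and 6.89 ± 0.28 (SD, n = 5) on standard arrays, with no unadjusted p under 0.05. Mylk2 differed by at most 0.33 in any comparison.

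Among the tubulins, Tuba1b averaged 10.24 ± 0.17 (SD, n = 4) on the deficient, 10.24 ± 0.37 (SD, n = 5) on the supplemented and 10.32 ± 0.11 (SD, n = 5) on the standard diet. Both tested probe sets of Tubb5, a widely used beta-tubulin, were above the standard diet on the supplemented diet, by 0.48 ± 0.24 (SE) and 0.42 ± 0.28, without an unadjusted p under 0.05. Tubgcp6 (rc_AA894189), a subunit of the gamma-tubulin ring complex, was the 1 tested cytoskeletal probe set whose arrays did not overlap between diets. Deficient arrays were at 4.62, 4.66, 4.86 and 4.68, supplemented arrays at 3.91, 4.38, 3.91, 4.36 and 1.97, and standard arrays at 4.19, 3.81, 4.26, 3.96 and 4.38.

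All deficient arrays of Tubgcp6 were above all others, although close to the filter level of 3.83. Non-overlap with the deficient diet above held for 0.682% of all probe sets against the standard diet and for 3.08% against the supplemented diet. Limma gave a deficient minus standard difference of 0.59 ± 0.40 (SE; unadjusted p = 0.163) and a deficient minus supplemented difference of 1.00 ± 0.40 (unadjusted p = 0.0244, adjusted p = 0.335). Supplemented array 5 was at the floor. Without it the second difference was 0.57, and with the Gapdh ratio as a covariate it was 0.23, whereas with the beta-actin ratio it was 1.00. Tubgcp4 rc_AA875165_g, another subunit of the complex, was at 2.48 on the same array and at 4.60 to 4.84 on the other supplemented arrays.

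For keratins 8 and 18 the diets overlapped. Krt8 was at 8.78, 8.92, 8.59 and 9.47 on deficient arrays, at 9.61, 8.58, 9.10, 10.12 and 8.99 on supplemented arrays and at 8.83, 8.86, 8.57, 9.01 and 9.54 on standard arrays. Krt18 X81448cds was at 9.67, 9.61, 8.42 and 10.38 on deficient arrays, at 10.41, 9.60, 10.06, 10.68 and 8.82 on supplemented arrays and at 9.48, 9.58, 9.34, 10.26 and 9.90 on standard arrays. For these probe sets and Krt18 rc_AI072634 the lowest limma adjusted p was 0.621, and each log2 difference was within 0.40 of 0.

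Across arrays the 2 partner keratins went together. Krt8 and Krt18 X81448cds had r = 0.75 (permutation p = 0.00212, adjusted 0.0191) and rho = 0.80 (permutation p = 0.00102, adjusted 0.0145) over 14 arrays. Without supplemented arrays 4 and 1, the farthest from the median of Krt8, r was 0.61, and with each diet's mean removed it was 0.74. For Krt8 and Krt18 rc_AI072634 r was 0.58 (permutation p = 0.0302, adjusted 0.155), rho was 0.60 (permutation p = 0.0257, adjusted 0.155), and r was 0.63 without the same arrays. These points share scaling and RNA quality.

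Most probe sets of 1 gene did not go together in this way. Of 12 pairs within 10 genes, 7 had a positive and 5 a negative r, from -0.43 for Myl12a to 0.83 for Tpm1, with a median of 0.031. Over all 1483 pairs of tested probe sets with the same symbol the median was 0.36, 23.2% were negative and 15.7% were above 0.75. Only the Tpm1 pair M15474cds_s and M60666_s passed adjustment (r = 0.83, permutation p = 0.00036, adjusted 0.0130; rho = 0.79, permutation p = 0.00121, adjusted 0.0145; r = 0.86 without supplemented array 1 and deficient array 14). With M34134_s both had r near 0 (-0.050 and -0.047). Both Krt18 probe sets had r = 0.32 (permutation p = 0.268) and rho = 0.50 (permutation p = 0.0703). The sign of the diet difference depended on the probe set in 4 of these 10 genes for deficient minus standard, 7 for supplemented minus standard and 8 for deficient minus supplemented. Some of these differences were smaller than their SE, such as those of Krt18 for deficient minus standard (0.037 ± 0.29 and -0.19 ± 0.39). The share over all genes with several tested probe sets is not given here, so these counts are not read as particular to cytoskeletal genes.

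**Figure D5:**
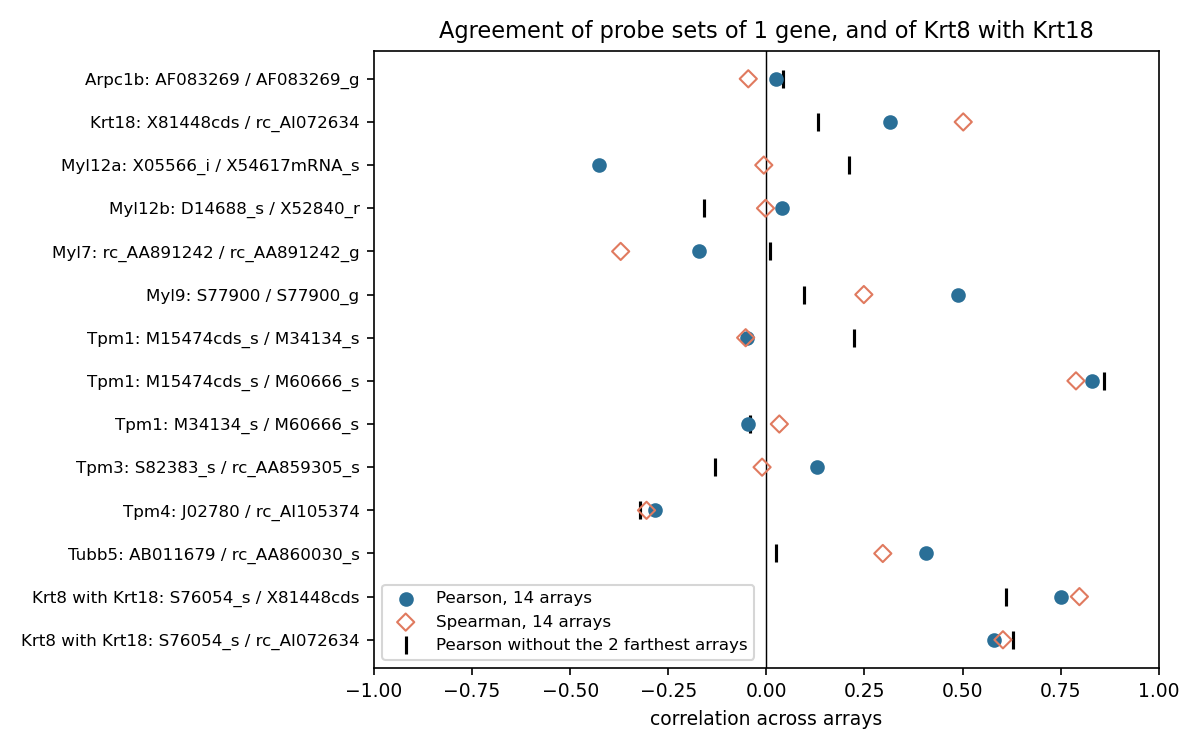
Correlation across 14 arrays of each pair of tested probe sets of 1 gene and of Krt8 with both Krt18 probe sets: Pearson's r (filled), Spearman's rho (open) and r without the 2 arrays farthest from the median (tick). Tpm1 M15474cds_s with M60666_s (r = 0.83) and Krt8 with Krt18 X81448cds (r = 0.75) have the highest r of the pairs shown. Of all 1483 pairs of tested probe sets with the same symbol, 15.7% had r above 0.75.

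Markers of other cell types were read beside these values. Krt19, the bile duct keratin, was below the filter level by both probe sets. The brighter, X81449cds_g, was at 3.95, 4.29, 4.24 and 5.10 on deficient arrays, at 3.79, 3.58, 3.80, 3.76 and 3.34 on supplemented arrays and at 3.43, 3.06, 2.38, 2.98 and 3.96 on standard arrays. In this probe set deficient arrays were the highest, apart from the meeting of array 11 with standard array 10. In the other, X81449cds, the diets overlapped, at 3.01 to 3.89 on deficient, 1.97 to 3.79 on supplemented and 2.07 to 3.71 on standard arrays. With the filter in place, neither Krt19 probe set was tested for a diet difference. Summed signals of the 5 bile duct markers on the array were 112 to 196 units on deficient, 103 to 153 on supplemented and 87.8 to 127 on standard arrays. Vim averaged 5.75 ± 0.27 (SD, n = 4) on deficient, 5.91 ± 0.31 (SD, n = 5) on supplemented and 5.83 ± 0.27 (SD, n = 5) on standard arrays. The 4 macrophage markers summed to 690 to 918 units on deficient, 902 to 1175 on supplemented and 732 to 961 on standard arrays, and their part in the Actg1 and Tpm1 values was not tested.

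A further fit asked which cytoskeletal signals followed the Gapdh 3′/5′ ratio within diets. Limma's slope of log2 signal per log2 unit of the ratio, with diet in the model, was -0.54 ± 0.21 (SE) for Actg1, -0.50 ± 0.18 for Actn4 and -0.53 ± 0.22 for Tpm4 J02780. It was 1.02 ± 0.34 for Myl9 S77900_g, 0.64 ± 0.19 for Myl6b, 0.68 ± 0.26 for Tubgcp6, 0.36 ± 0.16 for Tpm3 S82383_s, 0.60 ± 0.26 for Myl12b X52840_r and 0.43 ± 0.20 for Myl12a X54617mRNA_s. These 9 of 45 (20%) had an unadjusted p under 0.05, against 15% of all probe sets tested: 6 rising, against 7.77%, and 3 falling, against 7.19%. After adjustment 0 passed, against 0.117% of all (lowest limma adjusted p = 0.156, for Myl6b). Of those that rose, Myl9 S77900_g, Myl6b, Tubgcp6 and Myl12a X54617mRNA_s were far below the rest of their diet on supplemented array 5. That array had a log2 Gapdh ratio of -0.12, against 0.76 to 1.12 on the other supplemented arrays. Its log2 beta-actin ratio, 1.29, was the highest of its diet. How far these slopes rest on that array was not tested. The beta-actin ratio gave another picture for those that rose: 0 of 45 rose with it at an unadjusted p under 0.05, against 6.14% of all, and the slope was 0.070 ± 0.41 for Myl9 S77900_g, 0.20 ± 0.23 for Myl6b and 9.8e-05 ± 0.30 for Tubgcp6. The falling ones were 4 of 45 (8.89%), against 8.26% of all: Actg1 at -0.45 ± 0.21, Actn4 at -0.42 ± 0.18, Tpm4 J02780 at -0.59 ± 0.19 and Krt18 X81448cds at -0.61 ± 0.24. In both directions that makes 4, against 14.4% of all, and 0 passed adjustment, against 1.34%. Each test was added after the data were seen.

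Partner genes gave the same count of 0 calls. Each was read from its tested probe set with the highest mean, so a value may not hold for another probe set of the gene. At an unadjusted p under 0.05, of 25 tested actin regulators 2 were higher and 0 lower for deficient against standard, 3 higher and 1 lower for supplemented against standard, and 3 higher and 3 lower for deficient against supplemented. Of all probe sets tested 1.32% were higher and 1.71% lower in the first of these, 4.15% and 4.73% in the second, and 6.86% and 6.18% in the last. Over all 25 the median log2 difference was 0.019, 0.18 and -0.17 in these comparisons in that order. The lowest p of the list belonged to Ssh3 (a slingshot phosphatase, of the family that activates cofilin), at 1.09 ± 0.25 (SE) for supplemented minus standard and 0.89 ± 0.26 for deficient minus standard, and to Coro7 (a coronin, of a family of actin-binding proteins), at -0.74 ± 0.17 for supplemented minus standard and 0.48 ± 0.18 for deficient minus supplemented. Cald1 (caldesmon, which binds actin, myosin and tropomyosin) was at 1.02 ± 0.39 (SE) and Tmsb4x (thymosin beta 4, which holds actin monomers) at 0.30 ± 0.13 for supplemented minus standard. For deficient minus supplemented Cald1 was at -1.06 ± 0.41, Tmsb4x at -0.40 ± 0.14, Cap1 (which binds actin monomers) at -0.91 ± 0.37 and Cdc42 (a small GTPase that drives actin assembly) at 0.38 ± 0.16. Tln1 (talin, a link from integrins to actin) was at 0.50 ± 0.23 for deficient minus standard and 0.59 ± 0.23 for deficient minus supplemented. Of 9 tested microtubule partners, Stmn1 (stathmin, which binds tubulin dimers) was at -0.53 ± 0.21 for supplemented minus standard and 0.69 ± 0.22 for deficient minus supplemented, where Dync1li2 (a dynein chain) was at 0.40 ± 0.18. The 4 tested partners of intermediate filaments reached that level in no comparison. The lowest limma adjusted p of the genes named in this paragraph was 0.264, for Stmn1.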

How the data were processed

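Liver RNA of 14 samples was measured on Affymetrix arrays, about 5 µg of total RNA per target per the labels. The deposited values are intensity values, 1 per probe set on a linear scale, and their common trimmed mean of 150.3 units (2% trimmed at each end) shows a global scaling by the authors. How probes were summarised is not given in the sources used here. Median signals lay between 18.1 and 34.6 units, and 0 arrays were identical.

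The 59 control probe sets were set aside and the rest quantile normalised, floored at the pooled 20th percentile, put on the log2 scale and filtered at the pooled 40th percentile of it. Fold changes of dim probe sets are understated by the floor. Tests of other scalings, floors, filters, weights, covariates and left-out arrays are given in the closing section. Limma 3.58.1 in R 4.3.3 fitted all probe sets in 1 model of 3 diets, with eBayes and a trend, and was checked on simulated data. All p-values are two-sided. Exact permutation tests compared array measures (smallest possible p 0.00397 for 5 against 5 arrays and 0.00794 for 4 against 5). Correlations used 100000 permutations (Python 3.11.15, numpy 2.4.6).

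Gene names came from the platform annotation, and all 56 symbols stood in the current rat table. Named are the brightest probe set of each family, those with an unadjusted p under 0.05 or arrays that do not overlap, discordant probe sets, and the liver filament genes Actb, Actg1, Acta2, Krt8, Krt18, Vim and Des. The members and lists were chosen with earlier results of these data known. With 14 arrays, precision is limited by their number. The Gapdh slope test and the relations with the beta-actin controls were added after the data were seen.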

Additional observations from a re-analysis of the deposited data

Results flagged for a closer look

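Single arrays stood far from the others of their diet in 12 of 141 groups of 4 or 5 arrays, by Dixon's gap test, where chance flags about 1 in 20. The groups share arrays and so are not independent. The share flagged over all probe sets is not given here, so the count is not read as particular to cytoskeletal genes. Supplemented array 5 accounted for 5 of them, all low: Tubgcp4 rc_AA875165_g at 2.48 (others 4.60 to 4.84), Myl6b rc_AA875523_r at 4.00 (5.27 to 5.50), Tubgcp6 at 1.97, the floor (3.91 to 4.38), Myl9 S77900_g at 2.46 (5.26 to 6.07) and Myl12a X54617mRNA_s at 7.41 (8.90 to 9.06). That array also had the lowest log2 Gapdh 3′/5′ ratio, -0.12.

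Standard array 10 was high for Krt18 rc_AI072634, at 11.59 (others 10.12 to 10.49), and for Tuba1b, at 10.51 (10.23 to 10.29). Tubg1, the gamma-tubulin that starts microtubules, was low on deficient array 11, at 4.65 (5.50 to 5.56), and on standard array 6, at 4.33 (5.44 to 5.75). Tpm4 J02780 was high on deficient array 14, at 5.84 (4.85 to 5.00). Krt14 was low on deficient array 12, at 3.56 (4.29 to 4.34), and Myl12a X05566_i on deficient array 13, at 8.02 (8.35 to 8.37).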

How the results depend on the processing

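The count of cytoskeletal probe sets past limma's adjusted threshold was 0 in each of the 3 comparisons and 0 for the F-test, and it was 0 in all alternatives run: 26 for each comparison and 25 for the F-test. With 1 array left out it ranged from 0 to 0. These covered values as deposited, arrays centred on their median, a floor at the 10th percentile, log2 of the signal plus 16 units, no filter, a filter at the 60th percentile, no trend, array weights, either 3′/5′ ratio as a covariate, only the 2 diets compared, and leaving out 3 arrays that stood apart (supplemented 5, standard 10 and deficient 13) or each array in turn. At an unadjusted p under 0.05 the counts ranged from 0 to 3 for deficient against standard, 0 to 5 for supplemented against standard, 0 to 9 for deficient against supplemented and 0 to 6 for the F-test. The 3 were of 92 probe sets without the filter, where 364 of all 8740 reached that level. The 9 were of 45, with array weights (998 of all 5133) and without deficient array 14 (861 of all 5136). The 6 were of 92 without the filter (667 of all 8740). They were also of 45 with array weights (738 of all 5133) and without deficient array 14 (606 of all 5136). The count over all probe sets beside the 5 is not given here. The 8 differences with an unadjusted p under 0.05 kept their sign throughout, and the smallest adjusted p among them was 0.0817 (Tpm1 M60666_s, deficient against supplemented). Slopes on the Gapdh ratio within diets were a test added after the data were seen. In it 0 cytoskeletal probe sets were called in each direction, ranging from 0 to 0 with 1 array left out. Without a diet term 3 were called rising and 3 falling. Slopes of that fit also take in differences between diets, and its share of all probe sets called is not given here. Those counts are therefore not read as particular to cytoskeletal genes. No paired analysis was possible because array numbers are not shared between diets. Tubgcp6 had no value under the stricter filter. Detection calls were not used here, so the lowest signals cannot be set against background.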
